A study of Mus musculus with 107 samples.

Results

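CT26.WT is a mouse line of undifferentiated colon carcinoma, originally induced with a chemical carcinogen in BALB/c mice. The comparison described here set CT26.WT tumors treated with lenvatinib (LEN) against untreated tumors (NT) of the same day, over every gene in the table. The tumors were chosen by their labels, 3 LEN and 3 NT, which are 6 of the 107 tumors of a series on 12 mouse tumor models. CT26.WT cells were placed under the skin of the flank of female BALB/cAnNCrlCrlj mice, 7 weeks old at implantation. LEN was given by mouth at 10 mg/kg once a day for 7 days from a tumor volume of about 100 mm3, and LEN and NT tumors were collected on day 8. The NT group received no treatment, and 3 further CT26.WT tumors taken untreated at about 100 mm3 (Base) give the level at the start. All 9 tumors grew from 1 cell line in 1 mouse strain, so they model a single transplanted tumor, and nothing in the labels names the mice, so p-values measure the spread between these tumors.

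LEN is a small inhibitor of receptor tyrosine kinases. Its targets are the VEGF receptors, encoded by Flt1, Kdr and Flt4, the FGF receptors, encoded by Fgfr1, Fgfr2, Fgfr3 and Fgfr4, and the receptors encoded by Pdgfra, Kit and Ret. Tumor cells short of oxygen release VEGF-A, which acts on Kdr of endothelial cells. The leading or tip cells of a new vessel then make Dll4, Esm1 and Nid2, while pericytes and a basement membrane settle around the stalk behind them. RNA here came from whole tumors, so a lower level of an endothelial gene cannot tell fewer endothelial cells from less of that RNA in each cell.

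Expression was given in TPM, a measure of transcript abundance whose sum is equal in all tumors. It holds no sequencing depth, so the counting precision is unknown. The share of protein-coding genes was 46.2%, 50.9% and 44.7% in the NT tumors and 50.3%, 52.7% and 48.6% in the LEN tumors. In the 6 day 8 tumors the most abundant gene was the non-coding RNA Rn7s1 with 9.24% to 15%. NT tumor 5 stood apart, with a mean correlation of 0.942 with the other day 8 tumors against 0.951 to 0.958 for each of the rest (log2(TPM + 1)). Counts for the gene lists that lean on it are given with and without it, and the genes described here that passed without it are named. Markers of skin keratinocytes summed to 83.6 TPM in LEN tumor 2 and to between 1.71 and 15.7 TPM in the others. Of intestinal epithelial genes, Cdx1 was listed at 0 in all 6 tumors and Epcam, Cdx2, Vil1, Lgr5 and Muc2 were near 0, whereas Krt20, a keratin of the colon lining, stood at 25.7 to 68.5 TPM. The mesenchymal filament gene Vim stood at 2337 to 3392 TPM.

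The first comparison asked which genes differed between LEN and NT in CT26.WT alone. Of 15181 genes with a mean of at least 1 TPM over the 6 tumors, 1 was lower in LEN at an adjusted p under 0.05 (0.00659%) and 0 were higher (0%), by limma on log2(TPM + 1). The study's two-group test run gene by gene called 0 lower and 1 higher. At an unadjusted p under 0.05, 719 genes were lower (4.74%) and 651 were higher (4.29%). The values of the 3 LEN and 3 NT tumors did not overlap for 1150 genes lower in LEN (7.58%) and 1098 higher (7.23%). The median difference over all genes tested was 0.0092 on the log2 scale. The gene that passed was Gm23413, annotated as a miRNA, with 18.04, 10.54 and 8.65 TPM in the NT tumors and 0 TPM in each of the LEN and Base tumors. It lies in an intron of Trap1 at chr16:4057373-4057497 on the minus strand (GRCm38), and all 125 of its bases fall in 25-base words that occur in other annotated genes. Reads there could belong to any of those genes, so the value is uncertain.

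With 3 tumors in each group, the 6-tumor test estimates the spread of each gene from few values. All 72 day 8 tumors of the 12 models were therefore also fitted together as 24 groups, which share an estimate of the spread, and the same CT26.WT difference was tested in that fit. For a gene near 0 TPM in other models, that estimate can be smaller than the spread between the CT26.WT tumors. Of 17351 genes, 60 fell in LEN (0.346%) and 22 rose (0.127%) at an adjusted p under 0.05. Of these, 59 that fell and 20 that rose were protein-coding. With TPM rescaled over the protein-coding genes the counts were 243 and 31. Every value of a gene and its log2 difference is the same in both fits wherever it was tested in both, and only the error changes. The 72-tumor result leaned on NT tumor 5, as 22 of the 82 genes passed without it, while 36 to 68 passed when another of the 6 tumors was left out. A gene said below to rise or fall did so in this fit unless another is named. The genes that passed in each of the 6 fits with a CT26.WT tumor left out numbered 16. Among them were Igfbp3, Prnd, Nid2, Vash1, Cdh5, Dll4, Trp53i11, Esam, Robo4, Inhbb, Adgrf5 and Hacd4, which fell, and Sox2, Dmp1 and Pthlh, which rose. Every other gene of the 82 lost the call in at least 1 of these fits, and 60 lost it without NT tumor 5. Of the genes described below as falling or rising in the 72-tumor fit, those just named, Dkk2, Apoa1 and Krt20 still passed without NT tumor 5, and all others did not.

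Igfbp3, which encodes a secreted binder of insulin-like growth factors, had the smallest adjusted p of any gene in the 72-tumor fit. It was at 59.5, 52.9 and 76.6 TPM in the NT tumors and 12.2, 16.3 and 15.97 TPM in the LEN tumors, with 63.1, 65.2 and 62.3 TPM in the Base tumors. The groups were far apart, and the LEN tumors lay below the start level as well. The log2 difference was -2.01 ± 0.17 (SE), with an adjusted p of 0.0674 in the 6-tumor fit and 8.23e-12 in the 72-tumor fit. Its promoter is shown because it was the most clearly lowered gene, and the 2 motifs searched for below are absent from this window.
Igfbp3: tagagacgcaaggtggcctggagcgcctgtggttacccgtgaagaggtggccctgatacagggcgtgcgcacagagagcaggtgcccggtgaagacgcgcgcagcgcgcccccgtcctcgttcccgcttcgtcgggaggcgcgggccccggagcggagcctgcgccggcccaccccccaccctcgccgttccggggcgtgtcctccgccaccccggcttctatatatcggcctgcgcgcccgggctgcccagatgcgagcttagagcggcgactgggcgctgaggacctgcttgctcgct
The window runs over chr11:7213874-7214173, minus strand, from 250 bases before to 50 bases after the start of the gene (RefSeq, GRCm38.p6).

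**Figure D1:**
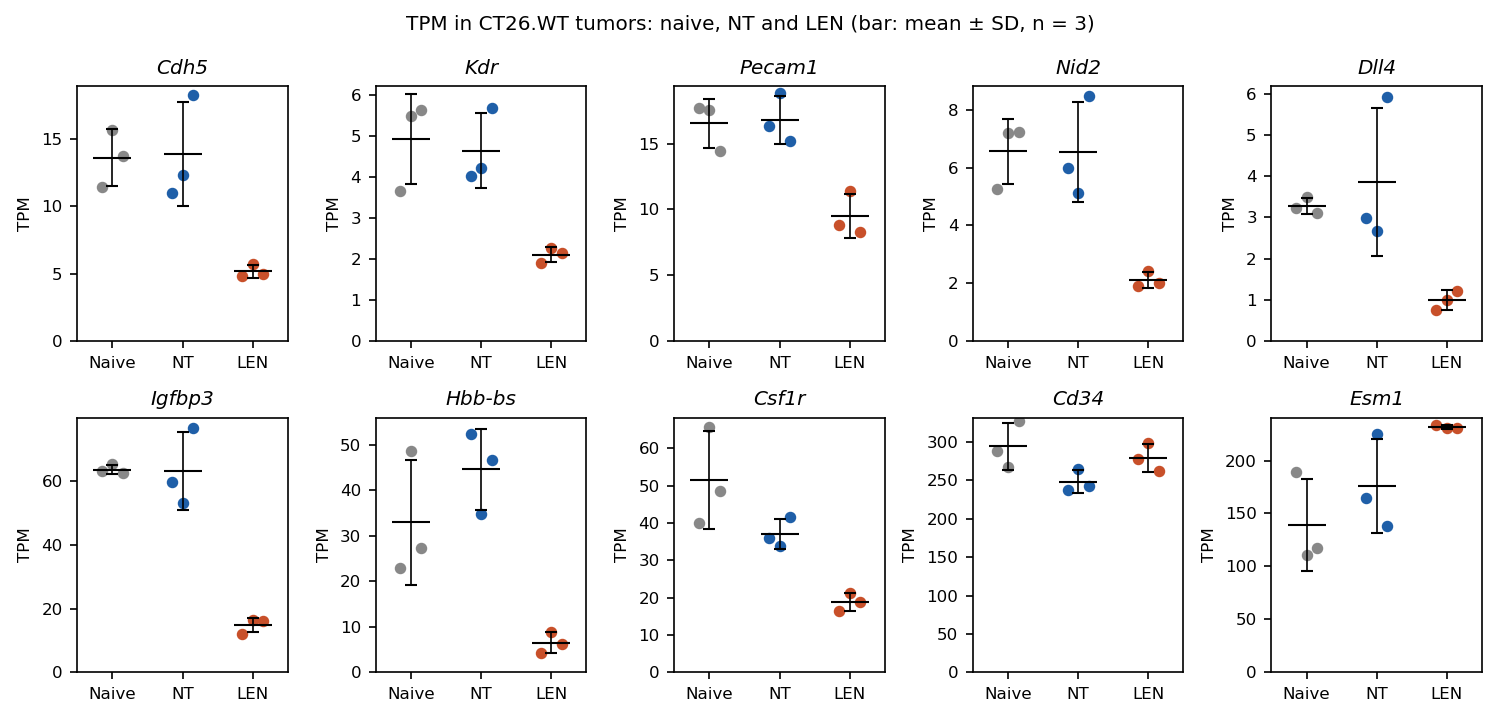
TPM of 10 genes in each CT26.WT tumor (vertical axes start at 0), with 3 Base (drawn as naive), 3 NT and 3 LEN tumors as points and bars for mean ± SD. Cdh5, Kdr, Pecam1, Nid2, Dll4, Igfbp3, Hbb-bs and Csf1r are lower in every LEN tumor than in every NT tumor, Cd34 overlaps, and Esm1 is higher in every LEN tumor.

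Genes of endothelial cells were lower in LEN. Of the 34 endothelial markers, 32 had a lower mean in LEN than in NT and 2 a higher one. For 26 the groups did not overlap with LEN the lower. Among markers with a mean of at least 1 TPM it was 23, with 1 apart and higher, against 7.58% and 7.23% of all genes. Of these markers, 27 passed the minimum of 1 TPM, and 23 of them were lower at an unadjusted p under 0.05, with 0 higher, against the 4.74% and 4.29% of all genes. Their median log2 difference was -0.77, and -0.68 without NT tumor 5. In the 72-tumor fit 12 of 31 endothelial markers tested fell and 0 rose, against 0.346% and 0.127% of all genes. Of the 12, 3 (Cdh5, Esam and Robo4) still passed without NT tumor 5.

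Cdh5, which encodes VE-cadherin of the junctions between endothelial cells, was at 11.01, 12.3 and 18.3 TPM in the NT tumors and 4.79, 5.69 and 5 TPM in the LEN tumors. Its highest LEN value was below its lowest NT value, and the Base tumors with 11.4, 15.7 and 13.7 TPM resembled the NT tumors. Cdh5 fell by 1.24 on the log2 scale, with an adjusted p of 0.000570 in the 72-tumor fit and 0.210 in the 6-tumor fit. Esam, an adhesion molecule of the same junctions, was at 6.51, 6.37 and 8.29 TPM in the NT tumors and 1.67, 3.01 and 2.87 TPM in the LEN tumors and fell by 1.21 (adjusted p = 0.000216, 72-tumor fit). Cldn5, the main claudin of endothelial tight junctions, was at only 2.06, 1.55 and 1.78 TPM in the NT tumors and 0.47, 0.42 and 0.48 TPM in the LEN tumors and fell in the same fit (adjusted p = 0.00738). Gpihbp1, which carries lipoprotein lipase on capillaries, fell by 1.40, from 8.01, 5.95 and 8.37 TPM to 1.44, 3.66 and 1.79 TPM (adjusted p = 0.00475). All of these junction and capillary genes had groups that did not overlap.

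Pecam1, which encodes CD31 and is the usual stain for tumor vessels, was at 16.3, 18.8 and 15.2 TPM in the NT tumors and 8.83, 11.4 and 8.3 TPM in the LEN tumors. The groups did not overlap, yet the difference of -0.77 on the log2 scale had an adjusted p of 0.267 in the 6-tumor fit and 0.157 in the 72-tumor fit, so it passed neither. Robo4, Egfl7, Erg, Tie1, Mmrn2 and S1pr1 fell in the 72-tumor fit, with adjusted p between 0.000853 and 0.0458. Robo4 encodes a guidance receptor of endothelial cells, and stood at 2.73, 2.97 and 3.94 TPM in the NT tumors and 1.07, 1.36 and 1.11 TPM in the LEN tumors. Egfl7, a protein that endothelial cells secrete, was at 20.6, 22.7 and 20.2 TPM in the NT tumors and 9.06, 13.2 and 8.08 TPM in the LEN tumors. Cd93, an endothelial and myeloid receptor, fell by 0.91 with 16.4, 16.2 and 17.6 TPM in the NT tumors and 7.42, 9.55 and 8.54 TPM in the LEN tumors (adjusted p = 0.00913, 72-tumor fit). LEN values were below NT values for each of these genes. Emcn, Plvap, Ptprb and Podxl were lower too, with groups that did not overlap, and passed in neither fit.

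Of the 16 endothelial markers with a promoter in the RefSeq table, 11 (68.8%) held the letters AGGAAG on either strand, a core bound by ETS factors, against 35.1% of all 27025 promoters. Among genes that fell in the 72-tumor fit, 14 of 39 promoters held it (35.9%). Shown are promoters of genes that fell and held it (Robo4, Egfl7 and Vash1). Each AGGAAG, or its reverse complement on the other strand, is in capitals. The windows of Kdr, Cldn5, Erg and Dll4, which also fell, held none.
Robo4: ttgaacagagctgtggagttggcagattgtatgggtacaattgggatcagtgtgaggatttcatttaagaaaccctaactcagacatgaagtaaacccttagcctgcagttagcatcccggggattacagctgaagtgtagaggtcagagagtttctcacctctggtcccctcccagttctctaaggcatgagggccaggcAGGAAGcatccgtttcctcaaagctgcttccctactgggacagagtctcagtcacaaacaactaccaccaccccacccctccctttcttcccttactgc
Egfl7: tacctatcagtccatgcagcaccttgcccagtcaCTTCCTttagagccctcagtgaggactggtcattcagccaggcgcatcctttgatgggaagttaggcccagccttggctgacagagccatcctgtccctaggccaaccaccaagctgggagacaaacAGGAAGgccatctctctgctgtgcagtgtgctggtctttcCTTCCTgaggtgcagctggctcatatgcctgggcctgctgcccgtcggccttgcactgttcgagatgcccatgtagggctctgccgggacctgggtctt
Vash1: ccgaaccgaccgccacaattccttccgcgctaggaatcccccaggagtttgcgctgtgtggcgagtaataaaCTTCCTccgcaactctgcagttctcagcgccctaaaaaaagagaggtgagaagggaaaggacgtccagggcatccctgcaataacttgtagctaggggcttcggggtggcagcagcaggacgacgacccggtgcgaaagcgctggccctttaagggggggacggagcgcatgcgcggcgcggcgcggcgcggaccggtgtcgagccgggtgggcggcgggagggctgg
Robo4 is read from chr9:37401722-37402021, plus strand, Egfl7 from chr2:26580833-26581132, plus strand, and Vash1 from chr12:86678450-86678749, plus strand (GRCm38.p6). Vash1, a vasohibin that endothelial cells make in response to VEGF, is not on the marker list and was at 3.2, 2.31 and 6.25 TPM in the NT tumors and 0.76, 1.47 and 0.73 TPM in the LEN tumors. It fell by 1.25 (adjusted p = 0.000144, 72-tumor fit), though NT tumor 5 held the highest value and the difference was -0.93 without it. A match of letters is a description and says nothing of a factor bound there.

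A few markers of the list went against the others. Cd34, which marks endothelial and progenitor cells, was at 237, 265 and 242 TPM in the NT tumors and 277, 298 and 262 TPM in the LEN tumors, and the groups overlapped. Ecscr, an endothelial surface protein, was at 26.7, 31.01 and 15.03 TPM in the NT tumors and 35.8, 34.04 and 33.6 TPM in the LEN tumors, with every LEN value above every NT value and an adjusted p of 0.567 in the 6-tumor fit. Its log2 difference of 0.55 was 0.25 without NT tumor 5. Summed over the list, the markers came to 402, 463 and 435 TPM in the NT tumors and 383, 423 and 367 TPM in the LEN tumors, a smaller contrast than for most single genes, as Cd34 alone held most of the sum in each tumor. Vwf and Nos3 overlapped between groups, at 1.51, 1.78 and 2.51 TPM against 1.3, 1.69 and 1.07 TPM for Nos3.

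The study summarizes microvessel density by an MVD gene score, an average of log-transformed expression over 6 endothelial genes, taken here as the mean log2(TPM + 1) of Cdh5, Kdr, Tek, Eng, Pcdh12 and Sparcl1. The score was 2.314, 2.497 and 2.775 in the NT tumors and 1.705, 1.893 and 1.717 in the LEN tumors. Its mean was 2.67 ± 0.13 in Base, 2.53 ± 0.23 in NT and 1.77 ± 0.11 in LEN (SD, n = 3). The score was 0.76 lower in LEN than in NT (1.03 lower with a pseudocount of 0.1), and no LEN tumor reached any NT tumor. The study chose the 6 genes from single cells of another model and by correlation with vessel density in treatment-naive tumors, or as known endothelial markers. Treatment-naive CT26.WT tumors were thus part of that choice, while the LEN and NT tumors are not named in it. No p is given for the score. All 6 had a lower mean in LEN, and Cdh5, Kdr, Pcdh12 and Sparcl1 fell in the 72-tumor fit. Sparcl1, a matrix protein of vessels, was at 7.41, 9.15 and 12.6 TPM in the NT tumors and 3.96, 4.72 and 4.49 TPM in the LEN tumors. Eng, the endoglin co-receptor for TGF-beta, was at 8.27, 11.1 and 8.3 TPM in the NT tumors and 6.62, 7.44 and 5.41 TPM in the LEN tumors and did not pass. Tek, the receptor of the angiopoietins, was at 0.52, 0.68 and 1.02 TPM in the NT tumors and 0.41, 0.58 and 0.43 TPM in the LEN tumors, under the minimum and overlapping. The study's wider list of genes related to endothelial cells, chosen from single cells of that other model, had 281 genes tested. Their median log2 difference was -0.14. At an unadjusted p under 0.05, 93 were lower and 17 higher, against 4.74% and 4.29% of all genes.

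**Figure D2:**
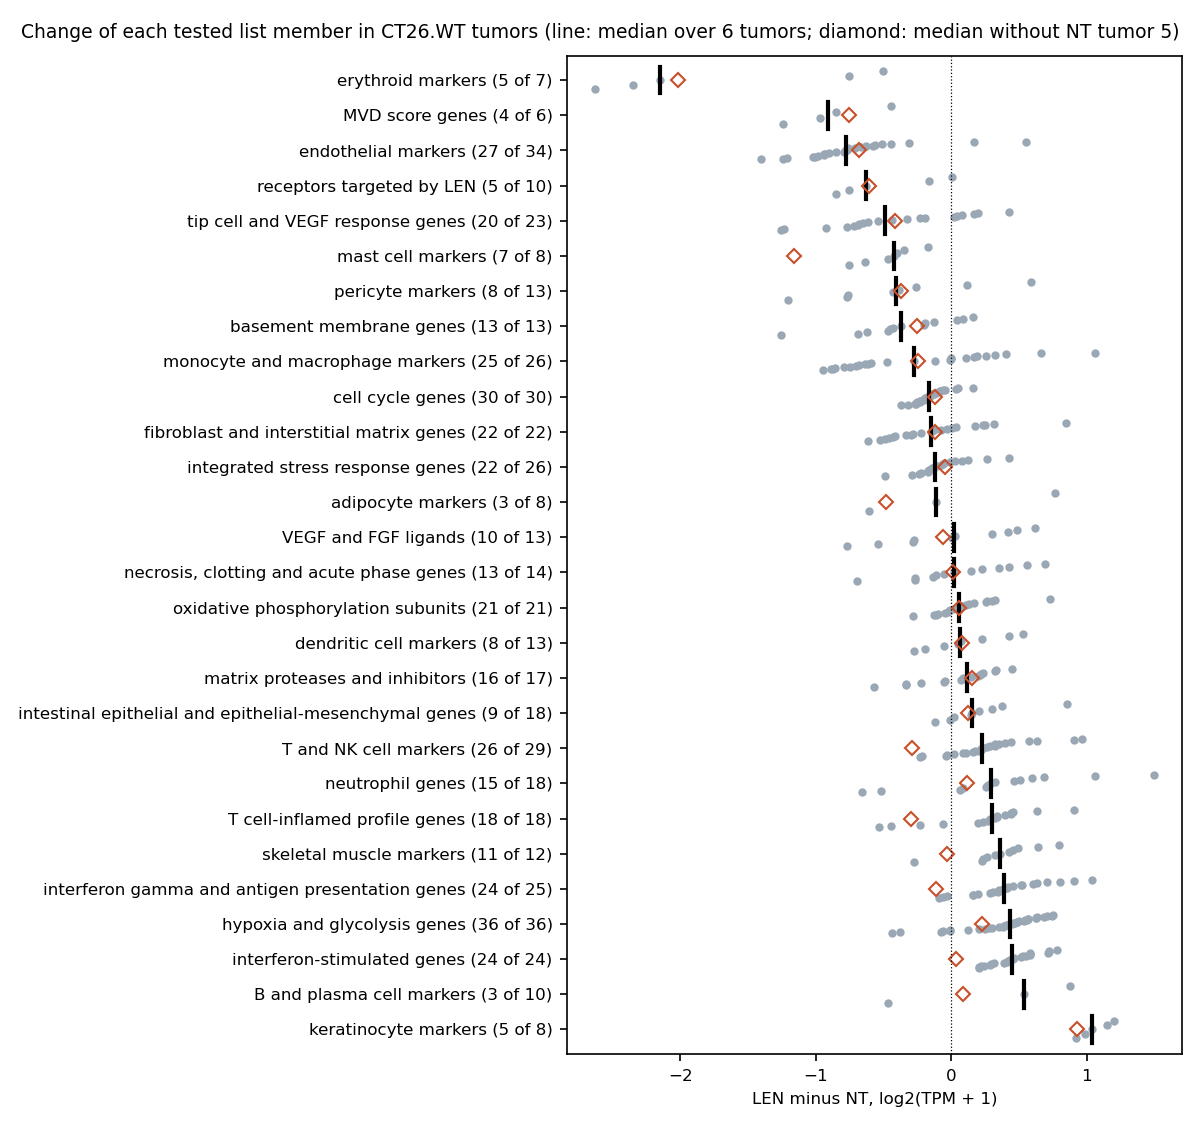
LEN minus NT difference on the log2(TPM + 1) scale (horizontal axis) of each tested member of each gene list (grey points), with the median over 6 tumors (line) and without NT tumor 5 (diamond). The endothelial, pericyte, basement membrane and erythroid medians lie below 0 either way, while those of the interferon gamma, T cell-inflamed and T and NK cell lists lie above 0 with NT tumor 5 and below 0 without it.

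Most genes of tip cells and of the VEGF response had a lower mean in LEN. Of 23 such genes, 16 had a lower mean in LEN and 7 a higher one, and of the 20 tested, 11 were lower and 1 higher at an unadjusted p under 0.05, against 4.74% and 4.29% of all genes, with a median log2 difference of -0.49 (-0.41 without NT tumor 5). Dll4, the Notch ligand of tip cells, was at 2.98, 2.67 and 5.93 TPM in the NT tumors and 0.74, 1 and 1.22 TPM in the LEN tumors and fell by 1.24 (adjusted p = 0.000156, 72-tumor fit). Nid2, a basement membrane linker enriched in tip cells, was at 5.99, 5.14 and 8.5 TPM in the NT tumors and 1.91, 2.42 and 2.01 TPM in the LEN tumors and fell by 1.26 (adjusted p = 0.000144). Notch4, the endothelial Notch receptor, fell in the same fit with an adjusted p of 0.0458. All 3 were highest in NT tumor 5, and without it the differences were -0.95 for Dll4, -1.08 for Nid2 and -0.72 (from -0.93) for Notch4, which passed in 1 of the 6 fits that leave out a tumor, while Dll4 and Nid2 passed in all 6. Pgf, Angpt2, Pdgfb and Lama4 were lower with groups that did not overlap and passed in neither fit.

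Esm1, which encodes endocan and is usually raised by VEGF in tip cells, went the other way at a far higher level. It was at 165, 225 and 138 TPM in the NT tumors and 234, 231 and 231 TPM in the LEN tumors, so all LEN values were above all NT values. The log2 difference of 0.43 had an adjusted p of 0.538 in the 6-tumor fit and was 0.27 without NT tumor 5. Apln, which encodes the tip cell peptide apelin, was at 30.02, 29.7 and 26.01 TPM in the NT tumors and 35.9, 34.3 and 28.5 TPM in the LEN tumors, and Nrp2, a co-receptor for VEGF family members, at 80.4, 88.96 and 74.2 TPM in the NT tumors and 85.7, 93.2 and 94.2 TPM in the LEN tumors. Both overlapped between groups.

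Of the 10 receptor genes that LEN targets, 5 passed the minimum, and 3 of these were lower at an unadjusted p under 0.05 with 0 higher (against 4.74% and 4.29% of all genes). Kdr, the main receptor of VEGF-A, was at 4.03, 4.22 and 5.69 TPM in the NT tumors and 1.9, 2.28 and 2.14 TPM in the LEN tumors and fell by 0.85 (adjusted p = 0.00708, 72-tumor fit). Flt1, which binds VEGF-A and placental growth factor, was at 7.75, 8.91 and 8.73 TPM in the NT tumors and 4.11, 6.43 and 5.03 TPM in the LEN tumors, with a difference of -0.63 (adjusted p = 0.396, 6-tumor fit). Kit, the receptor of stem cell factor and a marker of mast cells, was at 3.32, 4.3 and 2.78 TPM in the NT tumors and 1.68, 1.72 and 1.47 TPM in the LEN tumors, with a difference of -0.76 (adjusted p = 0.333). The 3 genes had LEN values below all NT values. Flt4, the receptor of VEGF-C, was at 0.85, 0.76 and 1.1 TPM in the NT tumors and 0.38, 0.31 and 0.30 TPM in the LEN tumors, also apart but under the minimum.

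Fgfr1 and Pdgfra did not separate between the groups. Fgfr1 was at 29.6, 33.97 and 35.7 TPM in the NT tumors and 30.7, 26.4 and 31.3 TPM in the LEN tumors, and Pdgfra, a receptor of fibroblasts, at 17.5, 25.03 and 15.8 TPM in the NT tumors and 19.1, 19.5 and 18.95 TPM in the LEN tumors. Fgfr2 and Ret stayed at or below 0.51 TPM in every day 8 tumor, and Fgfr4 at or below 0.22 TPM. Fgfr3 was at 0.13, 0.05 and 0.13 TPM in NT and 0.08, 1.14 and 0.12 TPM in LEN, with LEN tumor 2, the tumor with keratinocyte markers, alone above 1 TPM.

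Of 13 genes for VEGF, FGF, angiopoietin and hepatocyte growth factor ligands, 10 were tested. At an unadjusted p under 0.05, 2 were lower and 2 higher (against 4.74% and 4.29% of all genes). The median was 0.02 (-0.07 when TPM was rescaled over protein-coding genes, -0.06 without NT tumor 5). Vegfa, which encodes VEGF-A, was at 122, 146 and 109 TPM in the NT tumors and 166, 179 and 181 TPM in the LEN tumors. Each LEN tumor was above each NT tumor, with a log2 difference of 0.49 ± 0.12 (SE), an unadjusted p of 0.00463 and an adjusted p of 0.394 in the 6-tumor fit. Vegfd, a ligand of Flt4, was at 9.18, 9.35 and 6.03 TPM in the NT tumors and 11.2, 10.97 and 11.1 TPM in the LEN tumors, likewise apart and not past the adjusted threshold, with a difference of 0.42 (0.24 without NT tumor 5). Fgf10, a ligand made by mesenchymal cells, rose in the 72-tumor fit (adjusted p = 0.0254), but its values of 8.5, 12.8 and 4.51 TPM in NT and 12.9, 12.7 and 12.6 TPM in LEN overlapped, and the difference of 0.62 was 0.26 without NT tumor 5. Pgf, placental growth factor, was at 5.5, 5.85 and 5.09 TPM in the NT tumors and 2.83, 3.31 and 2.31 TPM in the LEN tumors, and Angpt2, which loosens vessels through Tek, at 7.08, 6.36 and 7.5 TPM in the NT tumors and 4.5, 4.88 and 4.04 TPM in the LEN tumors. Both were lower in all LEN tumors than in any NT tumor.

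Of 13 pericyte markers, 9 had a lower mean in LEN and 4 a higher one, and of the 8 tested, 4 were lower at an unadjusted p under 0.05 with 0 higher (against 4.74% and 4.29% of all genes). Mcam, an adhesion molecule of pericytes and endothelial cells, was at 12.6, 12.4 and 23.1 TPM in the NT tumors and 5.52, 6.97 and 5.82 TPM in the LEN tumors and fell by 1.21 (adjusted p = 0.000999, 72-tumor fit). Kcnj8 and Abcc9, the subunits of a potassium channel of pericytes, also fell in that fit (adjusted p = 0.0246 and 0.0336), at 1.61, 1.52 and 3.99 TPM in NT and 0.76, 0.88 and 1.02 TPM in LEN for Abcc9. NT tumor 5 was the highest tumor for all 3 of these genes. Without it the log2 difference was -0.93 for Mcam, -0.51 (from -0.76) for Kcnj8 and -0.45 (from -0.77) for Abcc9. Rgs5 was at 8.1, 8.22 and 10.45 TPM in the NT tumors and 3.89, 5.61 and 5.03 TPM in the LEN tumors and Pdgfrb, the receptor through which endothelial cells recruit pericytes, at 20.1, 16.9 and 21.3 TPM in the NT tumors and 12.3, 15.6 and 14.5 TPM in the LEN tumors. These did not overlap but did not pass. Acta2 of smooth muscle overlapped, at 6.78, 9.21 and 5.9 TPM and 5.71, 6.13 and 5.64 TPM.

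The 13 basement membrane genes were all tested, and 7 were lower at an unadjusted p under 0.05 with 0 higher (against 4.74% and 4.29% of all genes) and a median of -0.37. Col4a1, the main collagen IV chain of vessel basement membranes, was at 91.8, 105 and 104 TPM in the NT tumors and 73.2, 80.9 and 77.1 TPM in the LEN tumors, a difference of -0.37 with groups apart. Col4a2 had a difference of -0.43 and Col15a1 of -0.62, and Nid2 was the only one of the list to fall in the 72-tumor fit. Lama5, an epithelial and endothelial laminin chain, was the reverse, at 65, 75.3 and 72.97 TPM in the NT tumors and 80.5, 80.2 and 77.5 TPM in the LEN tumors, and did not pass.

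Hemoglobin genes were much lower in LEN. Hbb-bs, an adult beta globin, was at 52.3, 34.8 and 46.7 TPM in the NT tumors and 4.31, 8.92 and 6.34 TPM in the LEN tumors, against 23.04, 48.5 and 27.2 TPM in Base. It fell by 2.63 on the log2 scale (adjusted p = 0.0674 in the 6-tumor fit and 0.0136 in the 72-tumor fit). Hba-a1 and Hba-a2, the near-identical alpha globins, were at 3.81, 7.54 and 4.28 TPM and 7.82, 10.7 and 7.71 TPM in LEN against 24.8, 21.8 and 31.1 TPM and 50.5, 33.5 and 66.1 TPM in NT. How reads were split between such copies is uncertain, for the alpha as for the beta globins. The summed erythroid list was at 138, 96.1 and 155 TPM in the NT tumors and 22.2, 30.8 and 24.8 TPM in the LEN tumors. Of its 5 tested members, 4 were lower at an unadjusted p under 0.05 with 0 higher (against 4.74% and 4.29% of all genes). Slc4a1, a membrane protein of red cells, was near 0 in all 6 tumors. The LEN tumors did not overlap the NT tumors for any globin named here.

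Most macrophage genes had a lower mean in LEN. Of 26 monocyte and macrophage markers 25 were tested, and 9 were lower and 2 higher at an unadjusted p under 0.05 (against 4.74% and 4.29% of all genes), with a median of -0.28. Of the 25, 16 had a lower mean in LEN, and 21 without NT tumor 5. In that fit 9 were lower and 1 higher at an unadjusted p under 0.05, against 5.05% and 3.11% of all genes. Csf1r, the receptor on which macrophages depend for survival, was at 36.04, 33.7 and 41.6 TPM in the NT tumors and 16.3, 21.3 and 18.9 TPM in the LEN tumors and fell by 0.95 (adjusted p = 0.0212, 72-tumor fit). C1qa, C1qb and C1qc, the chains of complement C1q made by tissue macrophages, were lower with groups apart. C1qc was at 124, 115 and 105 TPM in the NT tumors and 55.1, 68.02 and 63.5 TPM in the LEN tumors, and its adjusted p was 0.0935 in the 6-tumor fit and 0.0668 in the 72-tumor fit. In the fit of the remaining 5 tumors without NT tumor 5, 18 of all genes passed as lower (0.119%) and 1 as higher (0.0066%). The 5 protein-coding genes among the lower were C1qa, C1qb, Igfbp3, Hba-a2 and Tpsab1. The other 13, Gm23413 among them, and the 1 higher gene were not protein-coding. Adgre1 (F4/80) was at 19.3, 21.5 and 13.4 TPM in the NT tumors and 10.54, 12.3 and 11.3 TPM in the LEN tumors, and Lyz2 at 442, 561 and 415 TPM in the NT tumors and 238, 323 and 281 TPM in the LEN tumors, both with the LEN values lower throughout.

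Other myeloid genes did not follow. Spp1, which encodes osteopontin and is made by macrophages and tumor cells, was at 1579, 1885 and 1645 TPM in the NT tumors and 2176, 2274 and 2284 TPM in the LEN tumors, every LEN tumor the higher (adjusted p = 0.394, 6-tumor fit). Cd68 and Cd14 overlapped, at 48.6, 56.7 and 40.9 TPM and 40.9, 50.9 and 42.1 TPM for Cd68. Mrc1, the mannose receptor, had one NT tumor far above the rest, NT tumor 5 with 86.7 TPM, and Lyve1 likewise with 19.6 TPM. Other genes of myeloid cells that fell in the 72-tumor fit were Cx3cr1, Siglec1, Stab1, Cd33 and Hpgds. Cx3cr1, the fractalkine receptor, had 7.33, 1.48 and 8.61 TPM in NT and 0.42, 0.66 and 0.94 TPM in LEN, and fell by 1.81 (adjusted p = 0.000833). These 5 were picked from the result and form no list of their own.

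Genes of the response to low oxygen and of glycolysis were higher in LEN, less so without NT tumor 5. Of 36 such genes 30 were higher in the mean of LEN, with a median of 0.43 against 0.0092 for all genes. With TPM rescaled over protein-coding genes these medians were 0.34 and -0.0843. At an unadjusted p under 0.05, 9 were higher and 1 lower, against 4.29% and 4.74% of all genes. The list summed to 7527, 9909 and 5593 TPM in the NT tumors and 10443, 10673 and 9755 TPM in the LEN tumors. NT tumor 5 had the lowest sum, and without it the median was 0.22, with 7 genes higher and 0 lower against 3.11% and 5.05% of all genes. In the 72-tumor fit 1 gene of the 36 rose and 0 fell, against 0.127% and 0.346% of all genes. That gene was P4ha1, a prolyl hydroxylase needed for collagen and a target of hypoxia-inducible factors, at 56.4, 77.8 and 47.5 TPM in the NT tumors and 86.5, 88.4 and 89.8 TPM in the LEN tumors (adjusted p = 0.0246, difference 0.57, and 0.41 without NT tumor 5).

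Car9, the carbonic anhydrase that marks hypoxic tumor cells, was at 28.8, 29.4 and 16.8 TPM in the NT tumors and 42.2, 46.5 and 35.7 TPM in the LEN tumors. The LEN tumors were above all NT tumors, with a difference of 0.74 (unadjusted p = 0.0136, adjusted p = 0.469 by limma in the 6-tumor fit) and of 0.49 without NT tumor 5. Ndrg1 was at 289, 403 and 146 TPM in the NT tumors and 447, 427 and 426 TPM in the LEN tumors and Bnip3, a mitochondrial autophagy receptor, at 181, 251 and 94.6 TPM in the NT tumors and 272, 265 and 259 TPM in the LEN tumors. Both were apart, with NT tumor 5 far below the other NT tumors, and without it the difference went from 0.75 to 0.34 for Ndrg1 and from 0.70 to 0.31 for Bnip3. Ldha, lactate dehydrogenase, overlapped, at 826, 1098 and 601 TPM in the NT tumors and 1149, 1168 and 1054 TPM in the LEN tumors, as did Pgk1, Aldoa and Slc2a1. Adm, adrenomedullin, was lower in every LEN tumor, with a difference of -0.43.

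Of the 33 hypoxia and glycolysis genes with a promoter in the RefSeq table, 19 (57.6%) held ACGTG on either strand, the core of the hypoxia response element, against 5305 of all 27025 (19.6%). CACGTG matches it on both strands and was counted as it occurred. The promoters of Car9 and P4ha1 are shown because both genes are described above, with the match, or its reverse complement, in capitals.
Car9: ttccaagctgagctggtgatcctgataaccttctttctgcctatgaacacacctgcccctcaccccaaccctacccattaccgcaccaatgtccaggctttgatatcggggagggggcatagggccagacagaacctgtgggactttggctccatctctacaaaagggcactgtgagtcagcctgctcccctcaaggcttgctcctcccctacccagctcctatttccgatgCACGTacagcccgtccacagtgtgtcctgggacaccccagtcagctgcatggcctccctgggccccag
P4ha1: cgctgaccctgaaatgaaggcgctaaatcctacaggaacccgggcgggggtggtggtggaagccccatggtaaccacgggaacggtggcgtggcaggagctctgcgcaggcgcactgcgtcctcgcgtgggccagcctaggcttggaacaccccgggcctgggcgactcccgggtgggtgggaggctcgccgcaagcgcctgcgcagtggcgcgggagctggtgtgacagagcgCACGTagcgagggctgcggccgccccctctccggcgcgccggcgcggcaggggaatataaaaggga
Car9 is read from chr4:43506776-43507075, plus strand and P4ha1 from chr10:59323046-59323345, plus strand (GRCm38.p6). Of the genes that rose in the 72-tumor fit 4 of 15 promoters held the letters (26.7%).

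**Figure D3:**
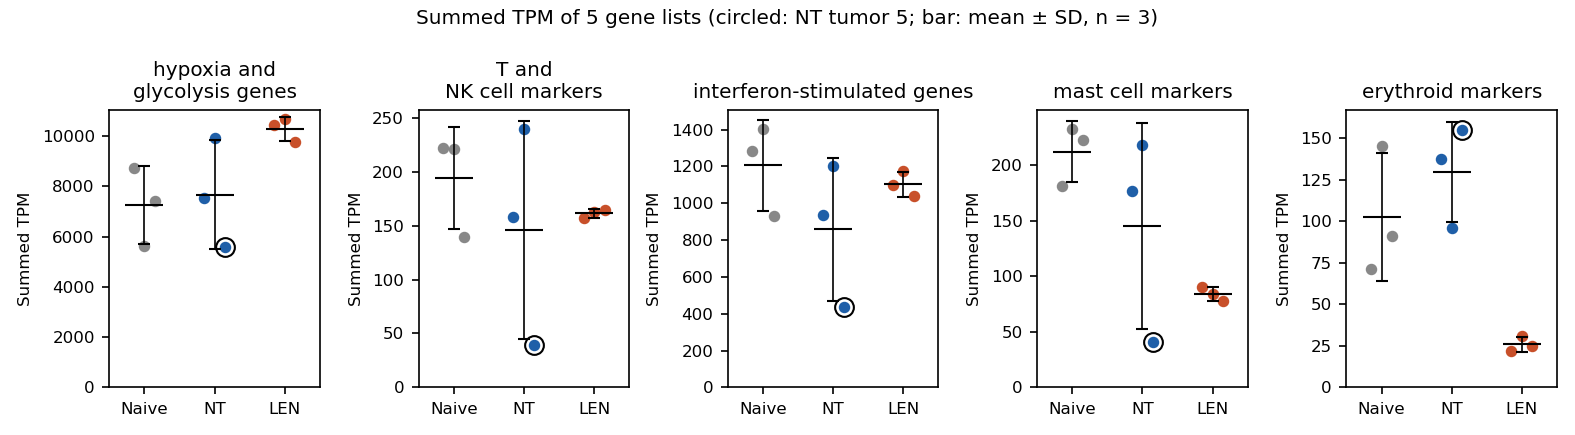
Summed TPM of 5 gene lists in each CT26.WT tumor (vertical axes start at 0), with Base (drawn as naive), NT and LEN tumors as points, bars for mean ± SD (n = 3) and a circle around NT tumor 5. That tumor has the lowest sum of the 6 day 8 tumors for hypoxia, T and NK cell, interferon-stimulated and mast cell genes, and every LEN tumor has a lower erythroid sum than any NT tumor.

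The 22 genes that rose in the 72-tumor fit included Dmp1, Pthlh, Sox2, Krt20 and Dkk2. Dmp1, a matrix phosphoprotein of bone and dentin, was at 6.59, 6.62 and 7.09 TPM in the NT tumors and 13.2, 13.4 and 15.2 TPM in the LEN tumors and rose by 0.94 (adjusted p = 0.0674 in the 6-tumor fit, 3.80e-05 in the 72-tumor fit). Pthlh, parathyroid hormone-related protein, was at 9.11, 16.1 and 7.91 TPM in the NT tumors and 31.3, 26.6 and 20.8 TPM in the LEN tumors and rose by 1.22 (adjusted p = 0.000690). Sox2, a transcription factor of stem cells, was at 22.3, 30.7 and 19.6 TPM in the NT tumors and 34.2, 39.4 and 38.03 TPM in the LEN tumors and rose by 0.62 (adjusted p = 8.52e-05). Every LEN value of the 3 genes exceeded every NT value. Krt20 was at 25.7, 45.2 and 37.3 TPM in the NT tumors and 64.3, 68.5 and 60.6 TPM in the LEN tumors and rose by 0.86 (adjusted p = 0.00303), also apart, and Dkk2, a secreted modulator of Wnt signalling, was at 11.4, 13.2 and 12.8 TPM in the NT tumors and 20.5, 19.7 and 15.3 TPM in the LEN tumors and rose by 0.53 (adjusted p = 0.00303). These are 72-tumor results, and in the 6-tumor fit none of them passed. Sox2 was at 0 TPM in every day 8 tumor of 4T1, LL2 and Renca, and such groups make the shared spread smaller. Dmp1, Pthlh and Dkk2 were likewise under 1 TPM in most other models. The adjusted p of these genes thus does not measure the spread between CT26.WT tumors alone.

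By p in the 6-tumor fit, the 10 protein-coding genes at the head of the lower side were Igfbp3, Hbb-bs, Fgd2, Hba-a2, Hba-a1, Trp53i11, Cd93, Plau, C1qc and Csf1r, with adjusted p of 0.0674 to 0.139, all above 0.05. Trp53i11 was at 12, 11.8 and 15.2 TPM in the NT tumors and 4.76, 5.8 and 4.43 TPM in the LEN tumors and fell by 1.22 in the 72-tumor fit (adjusted p = 5.97e-05). Plau, the urokinase plasminogen activator, was at 46.7, 43.4 and 46.6 TPM in the NT tumors and 30.3, 30.3 and 30.2 TPM in the LEN tumors, the LEN values nearly equal. On the higher side the 10 were Dmp1, Gm42791, mt-Co2, Pramef8, Scd1, Nr2f6, Lxn, Atp10a, Rcor2 and Trib1, with adjusted p of 0.0674 to 0.280. Scd1, the desaturase that makes monounsaturated fatty acids, was at 104, 113 and 96.8 TPM in the NT tumors and 136, 158 and 150.01 TPM in the LEN tumors, and mt-Co2, a mitochondrially encoded subunit of cytochrome oxidase, at 974, 1087 and 905 TPM in the NT tumors and 1740.1, 1728 and 1444 TPM in the LEN tumors. None of the 20 passed in the 6-tumor fit, and their groups did not overlap. In the 72-tumor fit Lxn and Atp10a rose besides Dmp1.

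Immune lists depended on NT tumor 5. T and NK cell markers summed to 158, 239.9 and 39.1 TPM in the NT tumors and 157, 163 and 165 TPM in the LEN tumors, so NT tumor 5 was far below the other 5 tumors. Of 26 tested markers 0 were lower and 0 higher at an unadjusted p under 0.05. The median of 0.23 became -0.29 without that tumor, with 4 lower and 0 higher, against 5.05% and 3.11% of all genes. Cd8a, the co-receptor of cytotoxic T cells, was at 4.51, 5.54 and 0.40 TPM in the NT tumors and 3.34, 3.74 and 4.61 TPM in the LEN tumors, and Nkg7 of cytotoxic granules at 14.6, 16.4 and 0.96 TPM in the NT tumors and 9.55, 9.87 and 10.7 TPM in the LEN tumors. The log2 difference turned from 0.40 to -0.30 without NT tumor 5 for Cd8a and from 0.44 to -0.58 for Nkg7. The T cell-inflamed profile of 18 genes had a median of 0.30, and -0.30 without NT tumor 5. In it Cmklr1, a chemerin receptor, was lower and apart, at 6.47, 6.89 and 6.6 TPM in the NT tumors and 4.28, 4.03 and 4.59 TPM in the LEN tumors.

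The 24 tested genes of interferon gamma signalling and antigen presentation had a median of 0.39 with 0 lower and 0 higher at an unadjusted p under 0.05, and -0.11 without NT tumor 5. B2m, the light chain of MHC class I, was at 1460.3, 1777 and 872 TPM in the NT tumors and 1508, 1858 and 1685 TPM in the LEN tumors, and H2-D1 at 786, 1039.9 and 416 TPM in the NT tumors and 867, 989 and 917 TPM in the LEN tumors. Cxcl9, an interferon gamma-induced chemokine, was at 43.8, 71.03 and 5.45 TPM in the NT tumors and 18.98, 31.1 and 27.7 TPM in the LEN tumors. Without NT tumor 5, Cxcl9 and the class II genes H2-Eb1, Cd74 and Ciita were lower at an unadjusted p under 0.05. That is 4 of 24 tested, against 5.05% of all genes. The 24 interferon-stimulated genes were all higher in the mean of LEN (median 0.44, and 0.36 with TPM rescaled over protein-coding genes). The median without NT tumor 5 was 0.0322. Mx2 was the 1 with an unadjusted p under 0.05, at 5.84, 8.76 and 4.2 TPM in the NT tumors and 10.8, 13.3 and 9.38 TPM in the LEN tumors. NT tumor 5 was the lowest of the 6 tumors for most of these genes, and what part its cell makeup had in them was not tested.

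The 8 mast cell markers, among them the proteases encoded by Tpsab1, Mcpt4 and Cpa3, were all lower in the mean of LEN. They summed to 177, 218 and 40.6 TPM in the NT tumors and 90.3, 84.3 and 78.1 TPM in the LEN tumors, with NT tumor 5 below every LEN tumor and the Base tumors (181, 233 and 222 TPM) above all of them. The median was -0.42 with 1 of 7, Kit, lower at an unadjusted p under 0.05 (against 4.74% of all genes). Without NT tumor 5 it was -1.16 and all 7 were lower (against 5.05% of all genes). Tpsab1, a tryptase, was at 74.8, 88.8 and 15.3 TPM in the NT tumors and 35.4, 36.8 and 34.2 TPM in the LEN tumors and fell in the fit without NT tumor 5. Among 15 tested neutrophil genes 1 was lower at an unadjusted p under 0.05 (against 4.74% of all genes). It was Cxcl1, at 19.4, 15.3 and 8.78 TPM in the NT tumors and 8.34, 8.68 and 8.19 TPM in the LEN tumors. The calgranulin gene S100a8 was at 10.2, 11.9 and 6.24 TPM in the NT tumors and 19.9, 80.8 and 12.7 TPM in the LEN tumors, highest in the LEN tumor with keratinocyte markers. None of the 8 tested dendritic cell markers and none of the 3 tested B and plasma cell markers had an unadjusted p under 0.05.

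Of 30 cell cycle genes, 27 had a lower mean in LEN, with a median of -0.17. At an unadjusted p under 0.05, 7 were lower and 0 higher, against 4.74% and 4.29% of all genes. Without NT tumor 5 the median was -0.12, and 2 were lower and 0 higher, against 5.05% and 3.11% of all genes in that fit. Mki67, which encodes the proliferation marker Ki-67, was at 74.4, 71.03 and 81.8 TPM in the NT tumors and 61.04, 67.9 and 60.6 TPM in the LEN tumors, and Pcna, the sliding clamp of DNA polymerase, at 174, 184 and 169 TPM in the NT tumors and 176, 193 and 177 TPM in the LEN tumors. No cell cycle gene passed in the 72-tumor fit. The integrated stress response list (22 tested) had 1 lower, Pycr1, and 0 higher (against 4.74% and 4.29% of all genes). Its median was -0.12 (-0.0486 without NT tumor 5). The transcription factor Atf4 was at 199.7, 227 and 219 TPM in the NT tumors and 190.1, 209.8 and 189 TPM in the LEN tumors. Of 21 subunits of oxidative phosphorylation 3 were higher and 0 lower (against 4.29% and 4.74% of all genes). Their median was 0.0536 (-0.0426 with TPM rescaled over protein-coding genes).

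The 22 fibroblast and interstitial matrix genes had 2 lower and 2 higher at an unadjusted p under 0.05 and a median of -0.15. For this and the other lists here, the shares of all genes were 4.74% lower and 4.29% higher. Bgn, the proteoglycan biglycan, was lower at 71.4, 98.6 and 84.3 TPM in the NT tumors and 43.6, 66.3 and 56.3 TPM in the LEN tumors, and Fn1, fibronectin, higher at 611, 598 and 606 TPM in the NT tumors and 670.3, 706 and 764 TPM in the LEN tumors, both with groups apart. The 16 tested matrix proteases and inhibitors had 2 lower and 1 higher. Of 9 tested intestinal epithelial and epithelial-mesenchymal genes 0 were lower and 2 higher, with Krt20 described above. Among 13 tested genes of necrosis, clotting and the acute phase the median was 0.0168 (-0.0095 rescaled), with 0 lower and 0 higher. Markers of tissue next to the tumor were read as sums. Skeletal muscle markers summed to 67.4, 90.9 and 25.1 TPM in the NT tumors and 76.1, 82.1 and 76.5 TPM in the LEN tumors, and adipocyte markers to 21.4, 42.1 and 22.8 TPM in the NT tumors and 26.8, 20.95 and 16.2 TPM in the LEN tumors. Fabp4, a fatty acid carrier of adipocytes and of some capillaries, was at 17.9, 28.2 and 20.2 TPM in the NT tumors and 16.02, 14.5 and 11.6 TPM in the LEN tumors, lower throughout. Keratinocyte markers summed to 15.7, 2.71 and 1.71 TPM in the NT tumors and 5.17, 83.6 and 3.37 TPM in the LEN tumors, with LEN tumor 2 the highest. No list named in this paragraph had a gene lower or higher in the 72-tumor fit except Krt20 on the epithelial list.

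Whether the LEN minus NT difference of a gene was another in CT26.WT than elsewhere was tested as a difference of differences in the 72-tumor fit. Against MC38, the other colon carcinoma model, 2 of 17351 genes were lower (0.0115%) and 7 higher (0.0403%) in CT26.WT at an adjusted p under 0.05. Sox2 differed by 0.75 (adjusted p = 0.00858), with a change of -0.13 in MC38, where its NT mean was 7.19 TPM, Dmp1 by 0.94 (adjusted p = 0.0179) and Dkk2 by 0.72 (adjusted p = 0.0179). In MC38 the NT mean was 0.01 TPM for Dmp1 and 0.18 TPM for Dkk2, levels from which little decrease could show. Efnb2, an ephrin of arteries, differed by 0.93 (adjusted p = 0.00858). It was at 23.4, 23.9 and 23.3 TPM in the NT tumors and 26.8, 29.1 and 31.04 TPM in the LEN tumors in CT26.WT, and its change in MC38 was -0.64. Without NT tumor 1, 0 genes were higher and 1 lower, so the difference from MC38 depended on that tumor.

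**Figure D4:**
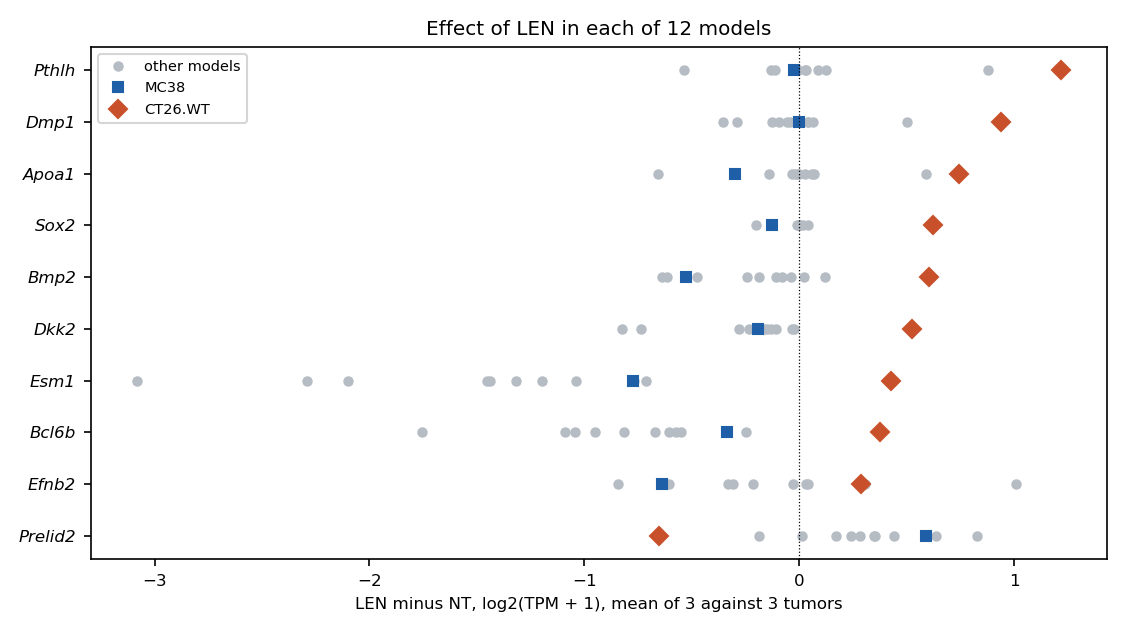
LEN minus NT difference on the log2(TPM + 1) scale (horizontal axis, mean of 3 against 3 tumors) in each of the 12 models for 10 genes named in the comparisons between models, with CT26.WT as diamonds, MC38 as squares and the others as grey points. CT26.WT lies above the other 11 models for Pthlh, Dmp1, Apoa1, Sox2, Bmp2, Dkk2, Esm1 and Bcl6b and below them for Prelid2.

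Against the mean of the other 11 models, 6 genes were lower (0.0346%) and 12 higher (0.0692%). Esm1 differed by 1.90 (adjusted p = 1.77e-05). Its mean change in the other 11 models was -1.47, and it was lower in LEN in 11 of 11 with groups that did not overlap. The level of Esm1 set CT26.WT apart before any treatment effect, at 176 TPM in NT (mean, n = 3) against 1.43 to 9.27 TPM in the NT tumors of the other models. The decrease of Esm1 in those models was between 1.00 and 9.06 TPM, against an SD of 44.8 TPM between the CT26.WT NT tumors. Whether a decrease of that size took place in CT26.WT was not tested. Bcl6b, an endothelial zinc finger gene, differed by 1.16 (adjusted p = 0.00487), with 46.5, 58.3 and 48.7 TPM in the NT tumors and 65.2, 72.03 and 62.2 TPM in the LEN tumors in CT26.WT and an NT mean of 1.45 to 8.29 TPM elsewhere. It was lower in LEN in all 11 other models, with groups apart in 10, and the decrease there was up to 6.53 TPM against an SD of 6.26 TPM between the CT26.WT NT tumors.

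**Figure D5:**
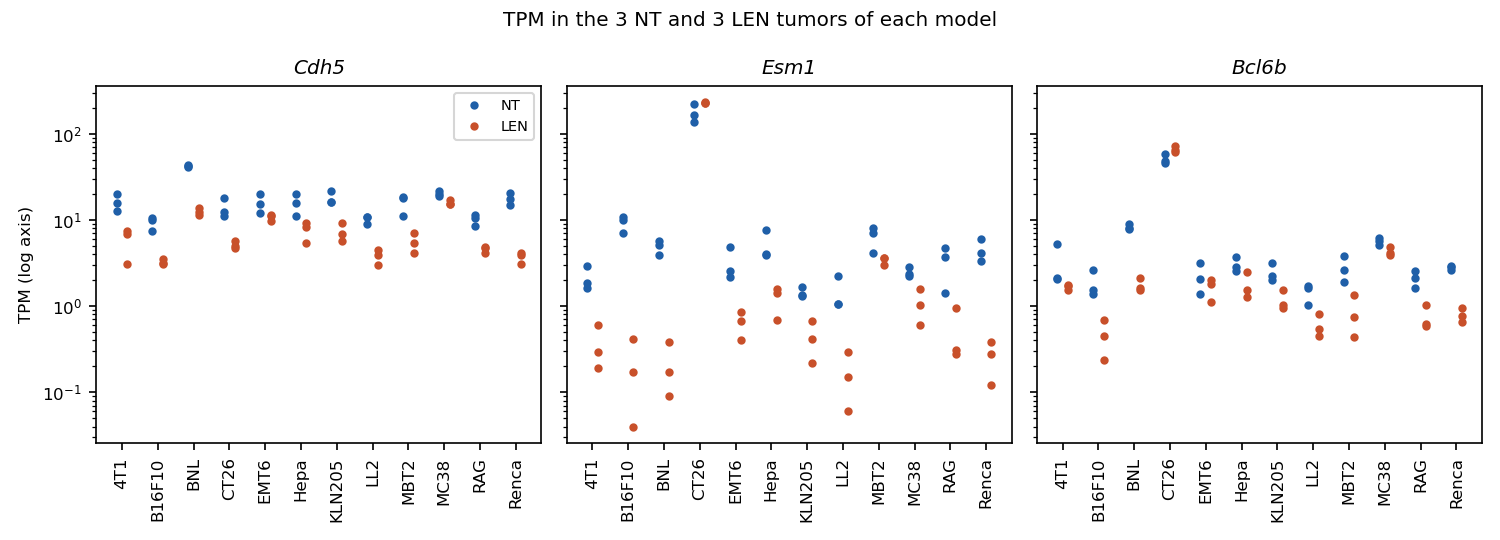
TPM of Cdh5, Esm1 and Bcl6b (vertical log axis) in the 3 NT and 3 LEN tumors of each of the 12 models (horizontal axis), each point a tumor. Esm1 and Bcl6b stand higher in CT26.WT than in any other model and are not lower in LEN there, while Cdh5 is in the range of the other models and lower in LEN.

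Cd34 had a mean of 248 TPM in the CT26.WT NT tumors, above each of the other 11 models (6.50 to 109 TPM). Cdh5, by contrast, had 13.9 TPM, above 3 of the other 11. In the contrast with the other 11 models, Dkk2 differed by 0.79 (adjusted p = 1.77e-05) and Pthlh by 1.19 (adjusted p = 0.00511). The NT and LEN means were both under 1 TPM in 7 of 11 for Dkk2, 8 for Dmp1, 8 for Sox2, 6 for Pthlh, 6 for Bmp2 and 10 for Apoa1. At such levels log2(TPM + 1) leaves little room for a decrease. A rise could still show, as for Apoa1 in BNL, from an NT mean of 0 to a LEN mean of 0.53 TPM (0.59). In models that held the genes at higher levels, Dkk2 differed between LEN and NT by -0.11 in LL2, where its NT mean was 124 TPM. It differed by -0.02 in MBT2 with 66.0 TPM, -0.83 in BNL with 10.4 TPM and -0.74 in KLN205 with 2.43 TPM. Dmp1 differed by -0.29 in 4T1 with 37.7 TPM, and Sox2 by -0.0100 in KLN205 with 10.4 TPM. At a lower NT mean of 0.46 TPM, Dmp1 differed by 0.50 in EMT6. Pthlh differed by 0.0256 in KLN205 with 21.8 TPM and by 0.88 in EMT6 with 5.28 TPM. Bmp2, a bone morphogenetic protein, differed by 0.86 (adjusted p = 0.0109), with 5.54, 7.5 and 5.47 TPM in the NT tumors and 8.31, 10.4 and 10.9 TPM in the LEN tumors in CT26.WT. Prelid2 differed by -0.99 (adjusted p = 0.00511), at 2.43, 1.7 and 2.19 TPM in the NT tumors and 0.92, 0.93 and 1.06 TPM in the LEN tumors, as its mean change elsewhere was 0.34. Apoa1, an apolipoprotein of the liver, differed by 0.78 (adjusted p = 0.0109), at a level of only 0.16, 0.42 and 0.42 TPM in the NT tumors and 1.27, 1.33 and 1.07 TPM in the LEN tumors. In this contrast Igfbp3 had an adjusted p of 0.343 and Cdh5 and Kdr of 1.000 each, and the log2 difference of Igfbp3 in CT26.WT was below that in 9 of the other 11. Without NT tumor 1, 1 gene was lower and 5 were higher, and of the 10 genes with the smallest adjusted p 4 still passed.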

How the data were processed

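Tumor RNA was purified with a tissue kit, depleted of ribosomal RNA and sequenced. The authors trimmed the reads with Trimmomatic 0.36, mapped them to GRCm38 (mm10) with STAR 2.5.2b, estimated expression with RSEM 1.2.31 and deposited TPM for 50686 genes in 107 tumors, with replicates kept apart. TPM keeps no depth, so counts and counting intervals are unknown, and short repeated RNAs are uncertain. Gene types came from GENCODE M21. Groups came from the labels, and no tumor was left out.

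For the LEN and NT groups, log2(TPM + 1) was tested with limma 3.58.1 in R 4.3.3, using its moderated statistics with a trend in the variance. This is a scale that understates the change of low genes. Genes had a mean of at least 1 TPM in the fitted tumors, and p-values were adjusted by Benjamini-Hochberg with a threshold of 0.05. Comparisons between models were contrasts in the fit of 72 tumors. Named genes were the 10 with the smallest p in each direction where no protein-coding gene passed, the MVD genes, Pecam1, receptors, members of each list that passed or had high TPM, and up to 10 genes per contrast. Other genes named here were chosen after their values were seen. The members and lists were chosen with earlier results of these data known. Promoters came from RefSeq for GRCm38.p6, with the window farthest upstream where a gene had several. The code was tested on simulated data. Figures were drawn with matplotlib 3.10.9 in Python 3.11.15 with pandas 2.3.3. The alternatives were other pseudocounts (0.1), minimums (0 or 5 TPM), scalings, no trend, a replicate block, the study's two-group test, and leaving out each tumor. Alternatives of the 72-tumor fit, and lists without NT tumor 5, were added after seeing the data. A few genes that the tests covered are not reported here.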

Additional observations from a re-analysis of the deposited data

Results flagged for a closer look

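The change under LEN differed between CT26.WT and MC38 by a test of the difference itself (limma contrast, Benjamini-Hochberg over 17351 genes). For the genes reported, the difference, CT26.WT minus MC38 on the log2 scale, was 0.75 for Sox2, 0.93 for Efnb2, 0.72 for Dkk2, 0.94 for Dmp1, 1.04 for Apoa1 and 1.13 for Bmp2, and -1.24 for Prelid2. All of these lost their call without NT tumor 1. Dmp1, Dkk2 and Apoa1 were under 1 TPM in MC38, where little decrease could show.

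Against the mean of the other 11 models, genes among the 10 with the smallest adjusted p differed by 1.90 for Esm1, 1.19 for Pthlh, 1.16 for Bcl6b, 0.97 for Dmp1, 0.86 for Bmp2, 0.79 for Dkk2, 0.78 for Apoa1 and 0.65 for Sox2, all greater in CT26.WT, and by -0.99 for Prelid2. Dkk2, Dmp1, Sox2, Pthlh, Bmp2 and Apoa1 were under 1 TPM in both groups of 6 to 10 of the other 11 models, where little decrease could show. The mean they were set against thus rests largely on tumors with little of the gene. Esm1 kept its call in each alternative run, and Bcl6b lost its call only without NT tumor 1. The groups of 3 tumors are too small for a test of outlying tumors.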

How the results depend on the processing

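Counts are genes lower and higher in LEN or in CT26.WT at an adjusted p under 0.05, and the cause of a change in count was not tested unless it follows from fewer tumors or genes. The 6-tumor fit (1 and 0) gave 3 and 0 with a pseudocount of 0.1, 0 and 0 with no minimum, a minimum of 5 TPM or upper quartile scaling, 1 and 1 with protein-coding scaling or no trend, 60 and 22 with all 72 tumors, and 0 and 1 with the study's two-group test. Leaving out 1 tumor gave 0 (without LEN tumor 3) to 18 lower (without NT tumor 5) and 0 to 9 higher (without LEN tumor 2). The fit of 72 (60 and 22) gave 10 higher with the pseudocount, 138 and 61 with no minimum, 12 higher with the minimum of 5, 132 and 65 with upper quartile scaling, 243 lower with protein-coding scaling and 36 higher without the 4T1 tumors, the most variable model. Leaving out 1 tumor gave 18 (without NT tumor 5) to 72 lower and 7 (without NT tumor 5) to 104 higher (without NT tumor 3). Protein-coding scaling moved the median of all genes to -0.0843.

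The contrast with MC38 (2 and 7) gave 4 and 2 with the pseudocount, 118 and 51 with no minimum, 3 higher with the minimum of 5, 8 and 17 with upper quartile scaling, 37 lower with protein-coding scaling and 1 higher with only the 12 tumors of both models. Leaving out 1 tumor gave 0 (without LEN tumor 1) to 10 lower and 0 (without NT tumor 1) to 16 higher. The contrast with the other 11 models (6 and 12) gave 10 and 4, 79 and 43, 6 higher, 23 and 24, and 55 lower under the same 5 settings in turn, and 1 to 10 lower and 5 to 21 higher with 1 tumor left out. The MVD gene score difference (-0.76) was -1.03 with the pseudocount and -0.96 with protein-coding scaling, and between -0.86 and -0.63 with 1 tumor left out.

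NT and LEN share only the replicate numbers 1 and 3, the same number marks different mice, and deviations of same-numbered tumors correlated at 0.000453 and 0.0401. With the replicate number as a block, 0 genes were lower and 0 higher, with 675 and 234 at an unadjusted p under 0.05, and Pdgfra was at -0.133. Pdgfra, at 0.006 with all 6 tumors, turned negative as well with upper quartile scaling (-0.00291), protein-coding scaling (-0.0887) and without NT tumor 1, NT tumor 5 or LEN tumor 2, with -0.122 to 0.193 over the 6 fits that leave out a tumor. Of 104 genes followed in the 6-tumor fit, 24 changed sign in at least 1 alternative, 12 of them without NT tumor 5. None of the 24 had passed the test in that fit. With protein-coding scaling the medians of 5 lists close to 0 became negative, those of ligands, dendritic cells, matrix proteases, necrosis and oxidative phosphorylation. No depth is known, so low genes carry an unknown counting error.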

Other observations

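Outside the lists, genes that fell in the 72-tumor fit included Inhbb, Mest and Serpinf1. Inhbb, a subunit of activins, was at 3.51, 4.99 and 4.4 TPM in the NT tumors and 1.33, 2.14 and 1.87 TPM in the LEN tumors (adjusted p = 0.000833). Mest, an imprinted gene, was at 4.02, 5.36 and 8.01 TPM in the NT tumors and 1.3, 1.71 and 1.01 TPM in the LEN tumors (adjusted p = 0.00522). Serpinf1, which encodes the antiangiogenic protein PEDF, was at 54.2, 47.98 and 79 TPM in the NT tumors and 22.97, 23.7 and 31.9 TPM in the LEN tumors (adjusted p = 0.0119). Among genes that rose, Fst, the activin antagonist follistatin, was at 19.3, 30.98 and 8.75 TPM in the NT tumors and 41.1, 38.9 and 31.5 TPM in the LEN tumors (adjusted p = 0.0102). Its log2 difference of 1.04 was 0.57 without NT tumor 5, and it passed in 3 of the 6 fits that leave out a CT26.WT tumor. These genes were picked after their values were seen.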
